A study of Mus musculus with 25 samples.

Results

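The comparison described here sets the tumours that shrank under anti-CTLA-4 against tumours of mice given the isotype antibody IgG2b. Members were chosen by title: each column of the expected-count table was matched to a sample title by its mouse number, and the 8 tumours titled as anti-CTLA-4 responders and the 5 titled as IgG2b controls were taken. They are 13 of the 25 tumours of the series. The other 12 are anti-CTLA-4 tumours titled as stable or as non-responding. They enter the low-count filter, the scaling of the libraries and the shared estimate of the spread, but not the contrast itself.

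All tumours were grown in C57BL/6 mice from B2905, also called M4, a melanoma line first obtained from an ultraviolet-irradiated mouse that carried an Hgf transgene, which is background knowledge of the line. Of 40 implanted mice, 30 received anti-CTLA-4 and 5 received IgG2b once tumours had reached a mean of 75 mm3. Another 5 stayed untreated and were not analysed here. Tumours were harvested from 20 of the 30 anti-CTLA-4 mice and from all 5 IgG2b mice. Either antibody was given at 10 mg/kg, with 2 doses a week over 2 weeks. A tumour was titled a responder when its size was decreasing in the 10 to 11 days after the last dose, so the responder group is defined by antibody and outcome together, and the 5 controls are the isotype group with no selection on outcome. Each tumour came from a mouse of its own, the line is a single transplanted line, and the host keeps its own immune system. The p-values measure the spread between these tumours.

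CTLA-4 is an inhibitory receptor of T cells that competes with CD28 for the ligands CD80 and CD86 on antigen-presenting cells, and it is abundant on regulatory T cells. Antibodies against it lift this brake on T cell priming, and some isotypes can also deplete regulatory T cells through Fc receptors. T cells that reach a tumour can kill through perforin and granzymes and release interferon gamma, which induces antigen presentation, chemokines and guanylate-binding proteins in the cells around them. Melanoma cells carry the pigment programme of melanocytes, driven by the transcription factor MITF.

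Total expected counts ran from 8.76 to 21.2 M per responder and from 17.7 to 34.3 M per control. Protein-coding genes took 86.4% to 88.4% of the counts in the 5 controls. In the responders this share was 23.8% in responder 1, 54.2% in responder 4, 62.0% in responder 7, 67.3% in responder 8, 70.3% in responder 6, 72.7% in responder 2, 74.3% in responder 3 and 87.0% in responder 5. Thus 7 of the 8 responders lay below every control and responder 5 lay among them. Responder 1 also had 14.3% of its counts in mitochondrial ribosomal RNA, against 1.15% to 6.33% in the other responders and 0.546% to 0.966% in the controls. The composition of the libraries therefore moved with the group. For this reason 3 alternatives accompany the results: a fit in which the protein-coding share is a covariate, a fit with only the 4 responders at a share of at least 70%, and a fit with responder 5 as the only responder. Outside the responders the share ran only from 82.9% in a non-responder to 89.2% in a stable tumour. The slope of the covariate therefore rests mostly on the responders, of which only responder 5 reached that span. A call kept or lost with the covariate thus cannot by itself tell composition and group apart. In bulk tissue, fewer cells of a type and less RNA per cell cannot be told apart.

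Levels are given as CPM, counts scaled by TMM to a common library total, which can be compared between tumours for 1 gene but not between genes. Fold changes are log2, responder minus control, from edgeR's quasi-likelihood test with Benjamini-Hochberg adjustment over 18031 genes, and a gene was called at an adjusted p under 0.05. Of 14753 protein-coding genes tested, 4440 rose (30.1%) and 4977 fell (33.7%), and their median log2 fold change was 0.0016. With a requirement of at least 2-fold, 1386 rose (9.39%) and 845 fell (5.73%). The 8 responders and the 5 controls did not overlap, with all responders higher, in 2138 genes (14.5%), and with all responders lower in 2628 genes (17.8%). These shares are the background for every list below. With only the 4 responders at a share of at least 70%, 3879 of 14785 tested protein-coding genes rose. For the 3 alternatives the shares were 23.3% higher and 23.0% lower with the covariate, 27.2% lower with the 4 responders, and 11.5% higher and 6.08% lower with responder 5 alone.

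The genes were read through 47 lists, 21 of cell types and 26 of pathways, holding 737 protein-coding genes, of which 723 passed the filter on low counts. A list score is the mean log2 CPM of its tested members in a tumour. In the heat map of list scores most immune lists are at the top. The melanocyte, erythroid, mitosis, cholesterol synthesis, oxidative phosphorylation, mast cell and replication lists are at the bottom. The type I interferon and alternatively activated macrophage lists are not at the top, with mean differences of -0.05 and -0.30. The bar plot of called members gives the same lists as shares of their tested members.

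**Figure D1:**
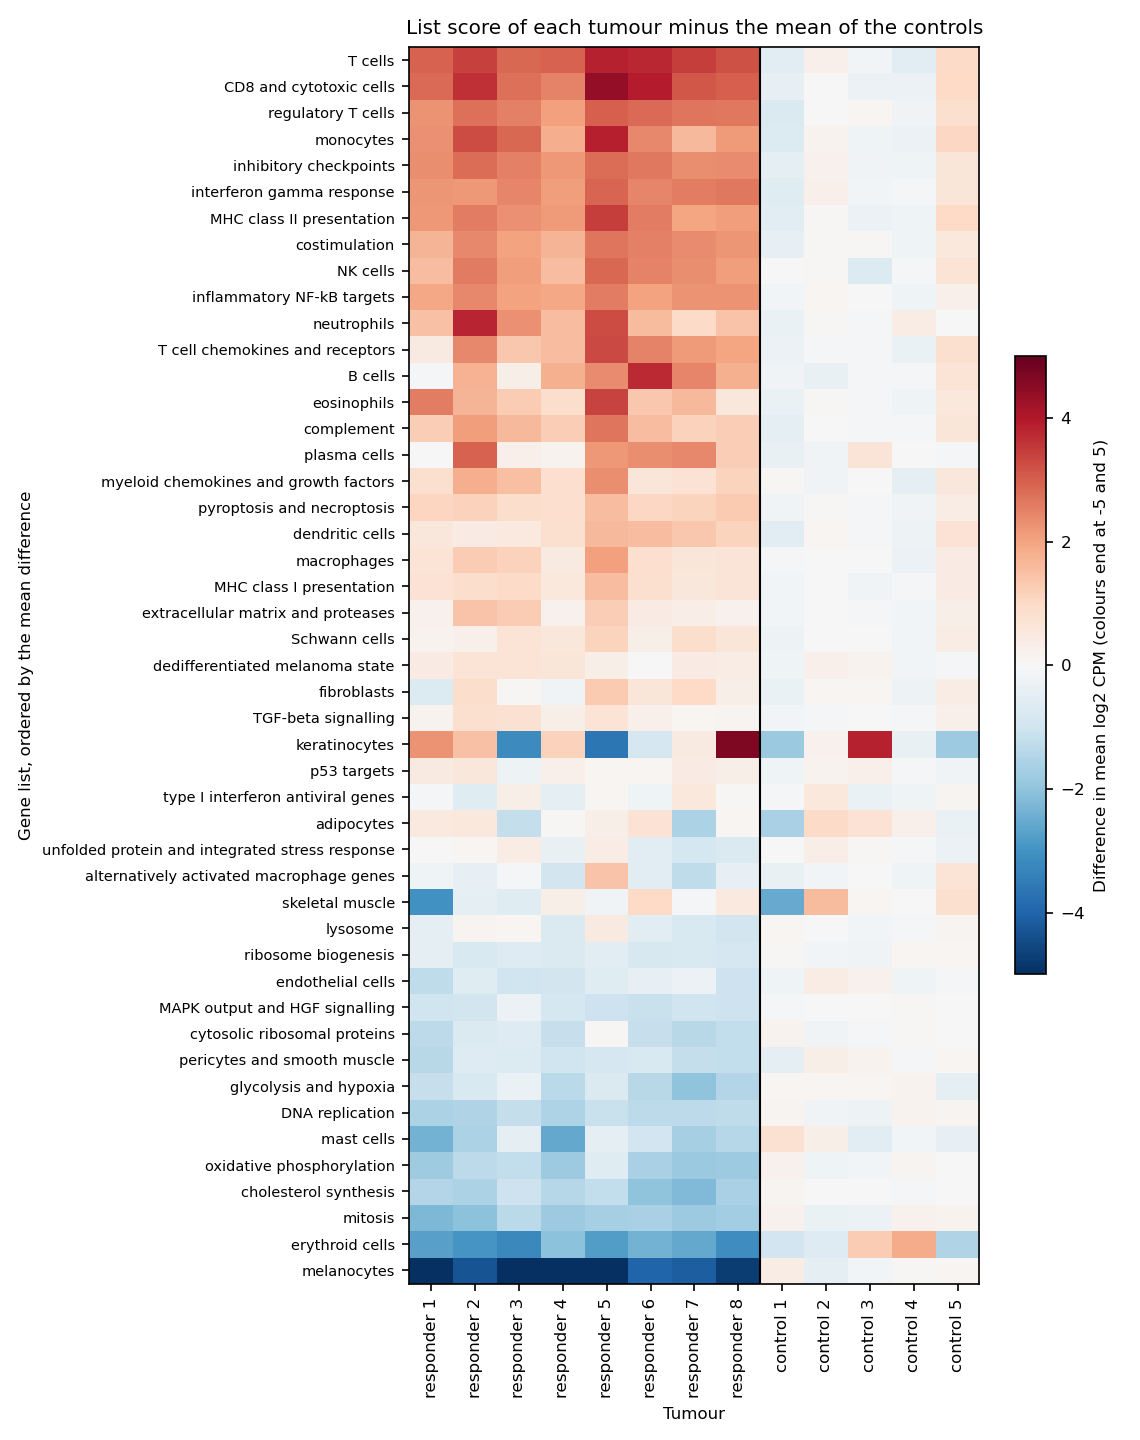
Score of each of 47 gene lists (mean log2 CPM of tested members) in each of the 8 responders and 5 controls, minus the mean of the 5 controls; lists are ordered by the mean difference and colours end at -5 and 5. The melanocyte row is blue in all 8 responders and the T cell row is red in all 8.

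**Figure D2:**
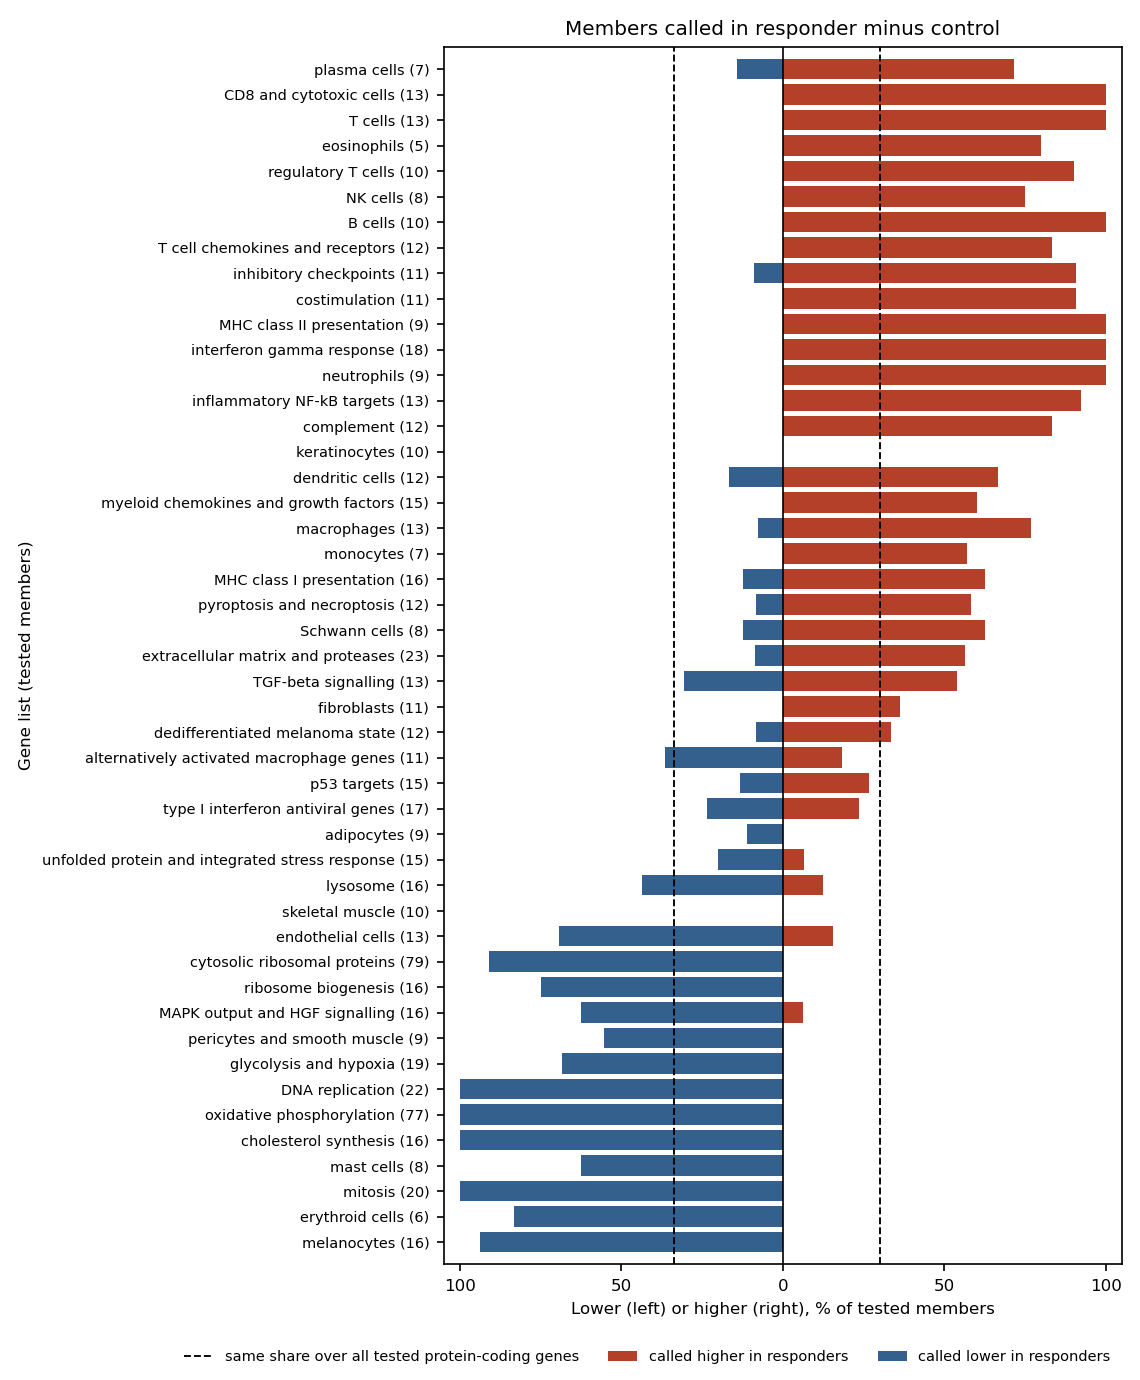
Percent of the tested members of each list called higher (right, red) or lower (left, blue) in responders at an adjusted p under 0.05, with the number of tested members in brackets. Dashed lines mark the shares over all tested protein-coding genes, 30.1% higher and 33.7% lower.

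Genes with the highest and lowest fitted change are given first, 8 of each, among called protein-coding genes that average 1 CPM or more across responders and controls. Chil3 (chromosome 3, 106147554 to 106167564, minus strand, GRCm38 throughout), a chitinase-like protein of monocytes and alternatively activated macrophages, stood at 0.267, 1.03, 0.470, 0.849 and 1.14 CPM in controls 1 to 5 and from 1.90 to 2019.7 CPM (median 535) in the responders. Its log2 fold change was 9.83 (SE 2.00, adjusted p = 0.000215). Nos2 (chromosome 11, 78920787 to 78960254, plus strand), the inducible nitric oxide synthase, stood at 1.27, 2.21, 2.43, 1.56 and 2.02 CPM in the controls and from 79.0 to 322 CPM (median 112) in the responders, and rose by 6.34 (SE 0.82, adjusted p = 1.19e-06). In both genes every responder lay above every control.

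Ly6i (chromosome 15, 74979534 to 74983430, minus strand), a surface protein of the Ly6 family, rose by 6.78 (SE 1.06, adjusted p = 1.17e-05), and by 7.70 without control 5. Clec1b (chromosome 6, 129397297 to 129409335, plus strand), a C-type lectin receptor for podoplanin, rose by 6.94 (SE 1.03, adjusted p = 5.16e-06), and by 8.81 without control 4. It overlaps Clec9a on the same strand, so reads of the pair may be shared. The granzymes Gzmd (chromosome 14, 56129556 to 56132608, minus strand) and Gzmf (chromosome 14, 56205263 to 56211417, minus strand), serine proteases of killer cells, rose by 6.37 (SE 1.34, adjusted p = 0.00027) and 7.45 (SE 1.66, adjusted p = 0.000458). The value of Gzmd was 7.28 without control 4. Gzmg (chromosome 14, 56156582 to 56159579, minus strand) had 0 counts in the 5 controls, and was at least 91.4-fold higher in the responders against a floor of 3 counts pooled over the control group. The granzymes C to G are near-identical neighbours whose reads may be split between copies. Their summed level was 0.626 to 2.55 CPM in the controls and 21.1 to 187 CPM (median 72.8) in the responders, with means of 1.63 ± 0.766 (SD, n = 5) and 80.3 ± 50.3 (SD, n = 8). Olfr60 (chromosome 7, 140343815 to 140361671, minus strand), annotated as an olfactory receptor, had 2 counts in all controls and 196 in all responders, a ratio of rates of 125 with a 95% exact interval of 34.2 to 1040, which covers counting error only. The ratio for Olfr60 was 201 without control 2 and 215 without control 5.

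Among the 8 with the lowest change, Slc45a2 (chromosome 15, 11000721 to 11029233, plus strand), a melanosome transporter, stood at 402, 180.1, 297, 415 and 435 CPM in the controls and from 0 to 2.93 CPM (median 1.35) in the responders, and fell by 7.88 (SE 1.04, adjusted p = 1.68e-06). Kcnj13 (chromosome 1, 87386363 to 87394729, minus strand), a potassium channel that lies within the opposite-strand gene Gigyf2, fell by 8.21 (SE 0.99, adjusted p = 4.97e-07). The change of Kcnj13 was -7.47 without control 5 and -9.19 without responder 7. Car14 (chromosome 3, 95897768 to 95904691, minus strand), a membrane carbonic anhydrase, fell by 8.08 (SE 1.00, adjusted p = 8.23e-07). Ptgds (chromosome 2, 25466709 to 25470046, minus strand), prostaglandin D synthase, fell by 7.85 (SE 0.98, adjusted p = 9.67e-07), and Cited1 (chromosome X, 102247381 to 102252181, minus strand), a transcriptional coactivator, by 7.09 (SE 0.88, adjusted p = 8.38e-07). Without responder 2 the change of Ptgds was -8.57. Gulo (chromosome 14, 65986786 to 66009207, minus strand), the last enzyme of vitamin C synthesis, and Ttr, the thyroid hormone carrier transthyretin, had 0 counts in all 8 responders. Against the floor of 3 counts pooled over the responders they were at least 479-fold and 102-fold lower. Control 5 held most of the Gulo counts, and without it the bound for Gulo was 88.9-fold. Slc26a4 (chromosome 12, 31519827 to 31559969, minus strand), an anion exchanger, had 3 counts in all responders and 1017 in all controls, a ratio of 266 with an exact interval of 90.7 to 1291. Without control 4 that ratio was 121. With the covariate the calls of Gulo (adjusted p = 0.141) and Slc26a4 (adjusted p = 0.0711) were lost.

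T cell genes rose together. All 13 of 13 tested members of the T cell list rose, against 30.1% of all tested protein-coding genes, with a median log2 fold change of 3.31. In 13 of 13 the responders and the controls did not overlap, against 14.5% of all genes. Cd3e, a signalling chain of the T cell receptor, stood at 0.500, 1.99, 1.33, 0.904 and 2.12 CPM in controls 1 to 5 and from 11.6 to 25.0 CPM (median 16.1) in the responders. It rose by 3.69 (SE 0.44, adjusted p = 4.67e-07), and Cd3d, its partner chain, by 3.17 (SE 0.57, adjusted p = 4.58e-05). Control 5 was the highest control for both genes and still lay below every responder. Cd6, a costimulatory surface receptor, rose by 3.77 (SE 0.45, adjusted p = 3.92e-07). With responder 5 as the only responder all 13 were still called, with a median of 3.85.

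Cytotoxic genes followed the same direction, with 13 of 13 higher and a median of 3.42. Cd8a, the coreceptor of killer T cells, stood at 1.07, 2.47, 2.50, 1.01 and 5.43 CPM in the controls and from 19.6 to 59.2 CPM (median 34.5) in the responders, and rose by 3.95 (SE 0.55, adjusted p = 2.77e-06). Gzmb, a granzyme that triggers apoptosis in the target cell, stood at 1.37, 1.33, 1.21, 1.53 and 2.74 CPM in the controls and from 8.27 to 54.4 CPM (median 16.8) in the responders, and rose by 3.88 (SE 0.65, adjusted p = 2.27e-05). Neither gene overlapped between the groups. Gzmc, another granzyme, rose by 5.44 (SE 0.83, adjusted p = 8.82e-06). Gzmk, a granzyme of CD8 T cells, rose by 4.59 (SE 0.86, adjusted p = 7.34e-05) from a low level, from 0 to 0.155 CPM (median 0.0548) in the controls and from 0.140 to 3.30 CPM (median 1.72) in the responders, and its groups overlapped. Ifng, which encodes interferon gamma, stood at 0.0333, 0.221, 0.313, 0.0822 and 0.517 CPM in the controls and from 1.56 to 6.52 CPM (median 3.50) in the responders, and rose by 4.00 (SE 0.66, adjusted p = 1.81e-05).

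Natural killer cell genes showed 6 of 8 higher, with a median of 2.89. Ncr1, an activating receptor of these cells, rose by 2.85 (SE 0.50, adjusted p = 3.3e-05) and Klrb1c, the NK1.1 antigen, by 2.49 (SE 0.46, adjusted p = 6.08e-05). Klre1 and Klrd1, subunits of killer lectin receptors, rose by 3.91 (SE 0.57, adjusted p = 4.47e-06) and 3.60 (SE 0.53, adjusted p = 5.27e-06). The 6 genes that rose did not overlap between the groups. Several of the lectin receptors are also carried by activated CD8 T cells.

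Regulatory T cell genes were higher in the responders than in the controls. Of the list, 9 of 10 rose with a median of 2.93, against 3.31 for the T cell list, and 8 did not overlap. The mean list score was 2.93 in the responders, 0.35 in the controls and 3.00 in the stable tumours, so the level was not particular to tumours that shrank. Foxp3, the lineage factor of regulatory T cells, stood at 0.267, 1.11, 0.861, 0.794 and 1.81 CPM in the controls and from 5.54 to 10.7 CPM (median 6.89) in the responders, and rose by 2.93 (SE 0.42, adjusted p = 3.62e-06). Ctla4, the target of the antibody, stood at 0.967, 1.25, 0.704, 0.877 and 2.74 CPM in the controls and from 5.58 to 16.8 CPM (median 10.9) in the responders, and rose by 3.15 (SE 0.39, adjusted p = 7.28e-07). For both genes the lowest responder was more than 2-fold above the highest control in CPM. The change of Foxp3 was smaller in the RPKM values deposited by the authors. By limma it was 0.84 on log2(RPKM + 1) and 1.06 on log2(RPKM + 0.1), against 2.07 and 3.11 for Ctla4. The size of the Foxp3 change thus depended on the values used, and the cause was not tested. Il2ra, the high-affinity chain of the interleukin-2 receptor, rose by 3.82 (SE 0.43, adjusted p = 2.47e-07), and Ccr8, a chemokine receptor of tumour regulatory T cells, by 3.62 (SE 0.55, adjusted p = 6.94e-06). Without control 5 the value of Ccr8 was 4.57. Il10, the suppressive cytokine, was the member that did not pass, at 0.37 (SE 0.48, adjusted p = 0.513). Foxp3 overlaps genes on the opposite strand, and the strand setting of the counting is not given in the sources used here.

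Receptors and ligands that restrain or assist T cells moved with them. Of the inhibitory checkpoint genes, 10 of 11 rose and 1 fell, with a median of 2.75. Pdcd1, which encodes PD-1, rose by 2.83 (SE 0.45, adjusted p = 1.1e-05). Cd274, which encodes its ligand PD-L1, stood at 21.6, 22.7, 29.4, 26.4 and 33.5 CPM in the controls and from 136 to 237 CPM (median 174) in the responders, and rose by 2.75 (SE 0.33, adjusted p = 4.27e-07). Pdcd1lg2, the other PD-1 ligand, stood at 0.667, 0.847, 0.704, 1.29 and 3.10 CPM in the controls and from 10.6 to 65.8 CPM (median 36.0) in the responders, and rose by 4.93 (SE 0.69, adjusted p = 2.94e-06). None of the 3 overlapped between the groups. Tigit, a receptor for nectin-like ligands, rose by 3.49 (SE 0.50, adjusted p = 3.16e-06). Lgals9, a galectin that binds TIM-3, fell by 0.38 (SE 0.16, adjusted p = 0.0357), and that call was lost with the covariate (-0.13, adjusted p = 0.568) and without any 1 of responders 4, 6, 7 and 8 and controls 1, 2 and 5, with changes of -0.51 to -0.33 over the 13 fits that leave out 1 tumour.

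Of the costimulatory genes, 10 of 11 rose, with a median of 2.75. Icos, induced on activated T cells, stood at 0.633, 1.11, 0.978, 0.904 and 1.35 CPM in the controls and from 9.50 to 24.6 CPM (median 16.9) in the responders, and rose by 4.12 (SE 0.40, adjusted p = 8.57e-08). Cd40lg, the ligand with which helper T cells license dendritic cells, had 3 counts in all controls, all of them in control 3, and 74 in all responders, a ratio of 31.5 with an exact interval of 10.4 to 156. Without control 3 it was at least 25.2-fold higher, against the floor of 3 counts pooled over the other controls. Cd80, a shared ligand of CD28 and CTLA-4 on antigen-presenting cells, rose by 3.05 (SE 0.32, adjusted p = 1.3e-07).

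**Figure D3:**
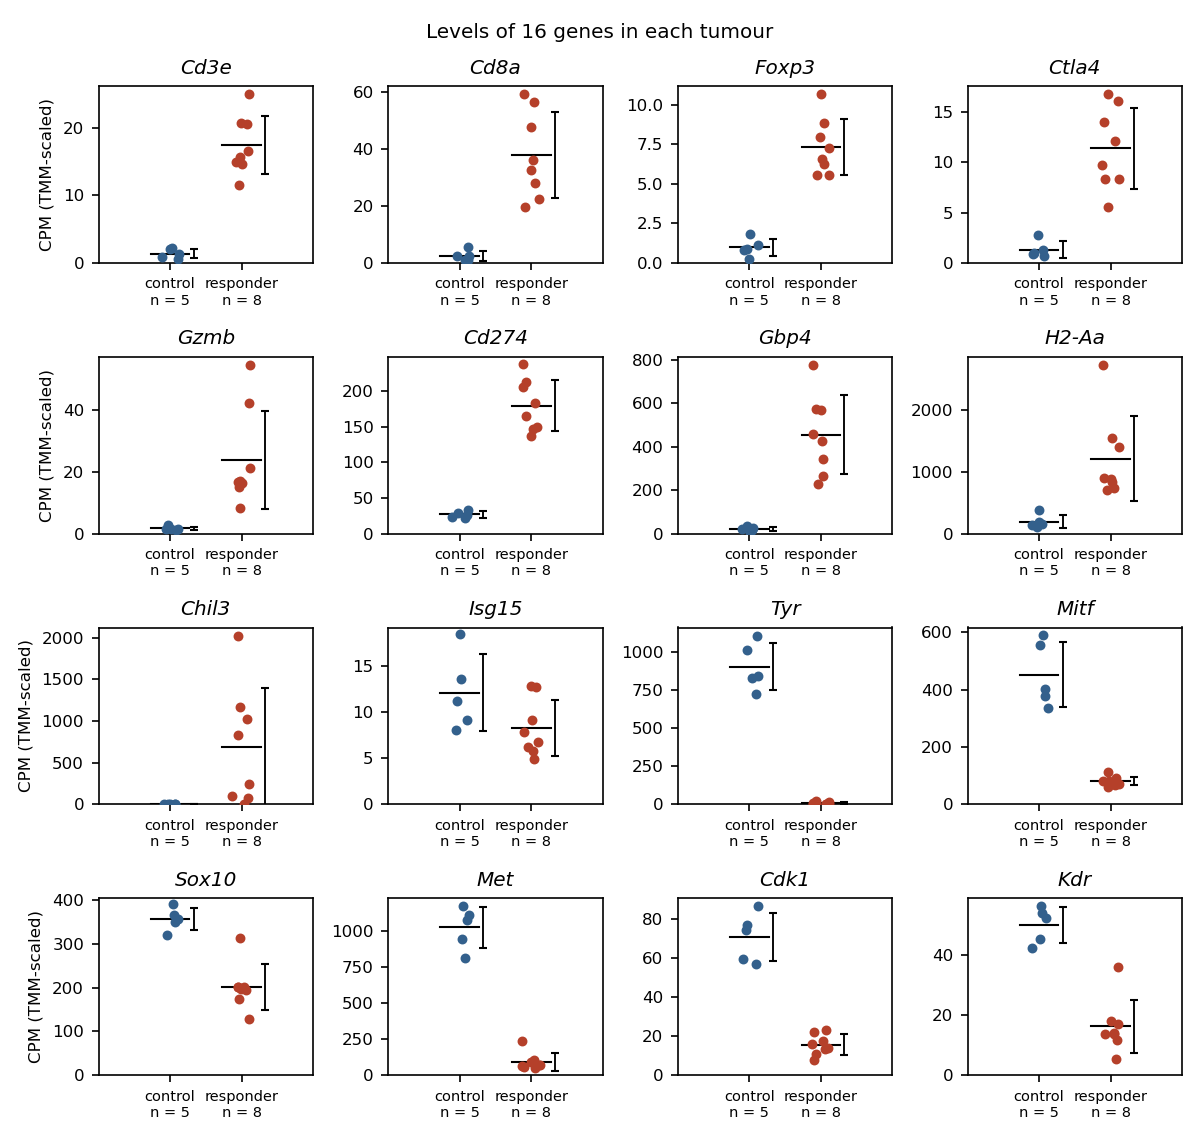
CPM of 16 genes in each of the 5 controls (blue) and 8 responders (red), with the mean as a line and 1 SD as a bar; every axis starts at 0. Cd3e, Cd8a, Foxp3, Ctla4, Gzmb, Cd274, Gbp4, H2-Aa and Chil3 are higher in all 8 responders than in any control, Tyr, Mitf, Sox10, Met, Cdk1 and Kdr are lower, and Isg15 overlaps.

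All 18 of 18 genes of the interferon gamma list rose, with a median of 2.39, and none overlapped between the groups. Irf1, a transcription factor and early target of interferon gamma, stood at 33.7, 43.6, 40.0, 36.4 and 61.8 CPM in the controls and from 156 to 281 CPM (median 184) in the responders, and rose by 2.23 (SE 0.30, adjusted p = 1.93e-06). Gbp4, a guanylate-binding protein, rose by 4.41 (SE 0.51, adjusted p = 3.08e-07) and Gbp5 by 3.37 (SE 0.38, adjusted p = 2.48e-07). Gbp4 overlaps Gbp8 and Gbp9 on the same strand, and the guanylate-binding proteins are close relatives, so their single values are uncertain. Gbp2 rose by 2.93 (adjusted p = 6.96e-06). Socs1, the feedback inhibitor of the pathway, rose by 2.95 (adjusted p = 3.25e-07). Ciita, the master regulator of MHC class II, rose by 3.08 (adjusted p = 3.69e-07), and Cxcl9, a T cell attractant, by 3.13 (adjusted p = 3.83e-06). The near-identical pair Tgtp1 and Tgtp2 summed to 47.1 to 133 CPM in the controls and 225 to 731 CPM (median 339) in the responders.

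The type I interferon antiviral genes did not move as a block. Of 17 tested, 4 rose and 4 fell, and their median was -0.11. Isg15, a ubiquitin-like protein that is a standard marker of type I interferon, stood at 8.00, 18.5, 9.08, 11.2 and 13.6 CPM in the controls and from 4.91 to 12.8 CPM (median 7.28) in the responders, overlapping, with a change of -0.54 (SE 0.28, adjusted p = 0.101). Irf7, the amplifier of the type I response, had a change of -0.11 (SE 0.27, adjusted p = 0.724). The risers were Oas2 (1.38, adjusted p = 0.0033), Oasl2 (1.09, adjusted p = 0.000824), Mx1 (0.98, adjusted p = 0.00621) and Xaf1 (0.69, adjusted p = 0.0101). The genes that fell were Rsad2, which encodes viperin (-1.16, adjusted p = 0.00103), Cmpk2 (-0.98, adjusted p = 0.00166), Ifit1 (-0.85, adjusted p = 0.00787) and Ifit2 (-0.55, adjusted p = 0.0186). With the covariate 2 rose and 1 fell, and the calls of Oas2 (0.77), Mx1 (0.64), Cmpk2 (-0.76), Ifit1 (-0.79) and Ifit2 (-0.19) were lost. With the 4 responders 2 rose, and with responder 5 alone none was called in either direction.

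The promoters of both interferon lists were searched because the lists share inducers and differ in their change. Windows of 250 bases upstream of the annotated start, 1 per gene, were taken from RefSeq (GRCm38.p6). The interferon-stimulated response element, searched on either strand as GAAA followed after any 2 bases by GAAA, is in 11 of the 13 interferon gamma promoters with an entry, in 5 of the 13 type I promoters and in 3.04% of all 27025 promoters. The gamma activation site, TTCNNNGAA on either strand, is in 7 and 2 of them and in 7.18% of all. The 2 motifs overlap each other in 17 of the 27025 promoters. Gbp2 (chr3:142620413-142620662, plus strand) and Socs1 (chr16:10785537-10785786, minus strand) are shown as genes that rose, and Isg15 (chr4:156200819-156201068, minus strand) as one that carries the same letters and did not pass the test. Sequences run 5′ to 3′ along the gene's strand up to the base before the start, and capitals mark matches to either motif on either strand.
Gbp2: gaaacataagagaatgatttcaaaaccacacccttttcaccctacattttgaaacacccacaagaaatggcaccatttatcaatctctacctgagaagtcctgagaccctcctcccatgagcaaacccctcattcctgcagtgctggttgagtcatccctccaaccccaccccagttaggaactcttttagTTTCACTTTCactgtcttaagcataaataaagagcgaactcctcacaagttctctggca
Socs1: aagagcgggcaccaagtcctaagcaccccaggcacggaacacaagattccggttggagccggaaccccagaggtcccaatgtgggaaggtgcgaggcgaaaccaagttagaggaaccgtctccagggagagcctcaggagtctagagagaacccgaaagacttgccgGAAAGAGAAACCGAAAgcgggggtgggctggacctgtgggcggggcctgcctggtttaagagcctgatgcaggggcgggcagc
Isg15: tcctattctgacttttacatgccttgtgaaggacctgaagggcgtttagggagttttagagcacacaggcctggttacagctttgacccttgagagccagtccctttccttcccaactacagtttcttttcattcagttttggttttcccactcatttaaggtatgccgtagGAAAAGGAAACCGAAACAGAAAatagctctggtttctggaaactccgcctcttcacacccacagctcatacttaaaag
The capitals hold 1 match in Gbp2, 2 overlapping matches in Socs1 and 3 overlapping matches in Isg15. A match is a description of the letters only, and the motifs were chosen with the values known.

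Antigen presentation rose, most of all class II. All 9 of 9 class II genes rose, with a median of 2.40, and 8 did not overlap. H2-Aa, an alpha chain of the class II molecule, stood at 106, 188, 130.3, 152 and 376 CPM in the controls and from 712 to 2736 CPM (median 889.9) in the responders, and rose by 2.68 (SE 0.46, adjusted p = 3.08e-05). Its partner chain H2-Ab1 rose by 2.90 (SE 0.46, adjusted p = 1.15e-05) and H2-Eb1, the beta chain of the other class II molecule, by 2.93 (SE 0.44, adjusted p = 5.77e-06). Cd74, the invariant chain, rose by 2.79 (SE 0.45, adjusted p = 1.45e-05). Responder 5 was the highest responder for the class II score, at 8.06 against 6.57 to 7.15 in the other 7, and control 5 the highest control, at 5.59.

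Of the class I genes, 10 of 16 rose and 2 fell, with a median of 1.09. H2-K1, a classical heavy chain, stood at 591, 664, 596, 577 and 986 CPM in the controls and from 1382 to 2786 CPM (median 1566) in the responders, and rose by 1.34 (SE 0.28, adjusted p = 0.000227). B2m, the light chain, was at 0.20 (SE 0.34, adjusted p = 0.625) and did not pass, and its value was -0.15 without responder 5. Nlrc5, the class I transactivator, had the list's highest change, 2.47 (SE 0.28, adjusted p = 2.71e-07), ahead of Tapbp, the peptide-loading chaperone tapasin, at 1.88 (SE 0.27, adjusted p = 3.46e-06). The 2 that fell are general chaperones of the endoplasmic reticulum, Calr (-0.96, adjusted p = 0.00115) and Canx (-0.87, adjusted p = 0.000553), and both calls were lost with the covariate (-0.49, adjusted p = 0.102 and -0.47, adjusted p = 0.0653) and with responder 5 alone.

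Chemokines of lymphocytes rose in 10 of 12, with a median of 2.76. Ccl5, made by T cells and macrophages, stood at 6.83, 10.5, 7.83, 8.93 and 13.7 CPM in the controls and from 31.4 to 145 CPM (median 54.7) in the responders, and rose by 2.90 (SE 0.54, adjusted p = 7.1e-05). Cxcl16 and its receptor Cxcr6, a pair that holds T cells in tissue, rose by 3.39 (SE 0.43, adjusted p = 8.11e-07) and 3.89 (SE 0.57, adjusted p = 4.54e-06). Both overlap a gene on the opposite strand. Cxcr3, the receptor for Cxcl9, did not pass, at 0.77 (SE 0.40, adjusted p = 0.0927). It passed without control 5 (1.33, adjusted p = 0.00489), without responder 1 (0.88, adjusted p = 0.0423) and with the covariate (1.55, adjusted p = 0.00713).

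Chemokines and growth factors of myeloid cells rose in 9 of 15, with a median of 1.23. Csf1, the macrophage growth factor, rose by 1.23 (SE 0.17, adjusted p = 2.25e-06). Cxcl2 and Cxcl1, neutrophil attractants, rose by 3.66 (SE 0.77, adjusted p = 0.000271) and 3.48 (SE 0.85, adjusted p = 0.00104), the latter by 2.16 without responder 2. Ccl2, the monocyte attractant, did not pass, at 0.66 (SE 0.39, adjusted p = 0.14), with from 6.29 to 37.4 CPM (median 10.9) in the responders against from 6.23 to 11.0 CPM (median 8.29) in the controls. With the covariate 14 of the 15 were called higher, Ccl2 among them (1.19, adjusted p = 0.0245).

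Inflammatory NF-kB targets rose in 12 of 13, with a median of 2.17 and 10 not overlapping. Tnf, the cytokine, stood at 1.60, 0.884, 1.60, 0.822 and 2.48 CPM in the controls and from 6.70 to 27.4 CPM (median 10.2) in the responders, and rose by 3.20 (SE 0.49, adjusted p = 7.5e-06). Il1b and Il1a, the interleukin-1 cytokines, rose by 4.73 (SE 0.60, adjusted p = 8.27e-07) and 4.06 (SE 0.70, adjusted p = 3.2e-05). The kappaB site, searched on either strand as GGG followed after any 2 bases by TTTCC, is in 4 of 12 promoters of the list against 1.40% of all promoters.

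Complement genes rose in 10 of 12, with a median of 1.60. C3, the central component, stood at 40.7, 96.5, 74.5, 76.9 and 222 CPM in the controls and from 761 to 4069 CPM (median 1512) in the responders, and rose by 4.22 (SE 0.66, adjusted p = 9.66e-06). Itgax, the CD11c chain of a complement receptor, rose by 3.34 (SE 0.45, adjusted p = 1.85e-06) and Cfb, factor B of the alternative pathway, by 2.05 (SE 0.46, adjusted p = 0.000519). Pyroptosis and necroptosis genes rose in 7 of 12 with 1 lower and a median of 0.88. Nlrp3 and Aim2, inflammasome sensors, rose by 3.17 (SE 0.38, adjusted p = 4.53e-07) and 2.80 (SE 0.28, adjusted p = 9.79e-08), and Gsdmd, the pore-forming gasdermin D, by 1.92 (SE 0.25, adjusted p = 9.84e-07). Mlkl, the necroptosis effector, fell by 0.36 (SE 0.14, adjusted p = 0.0309). That call was lost with responder 5 alone, with the covariate (-0.44, adjusted p = 0.0537) and without responder 2 (-0.31, adjusted p = 0.0622), responder 6 (-0.33, adjusted p = 0.0561), control 2 (-0.31, adjusted p = 0.0843) or control 5 (-0.35, adjusted p = 0.0542).

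Macrophage markers were split. Of the list, 10 of 13 rose and 1 fell, with a median of 1.19. Lyz2, a lysozyme of myeloid cells, stood at 258, 319, 297, 219.5 and 481 CPM in the controls and from 1533 to 8006 CPM (median 2681) in the responders, and rose by 3.45 (SE 0.58, adjusted p = 2.13e-05). Trem2, a lipid-sensing receptor of tumour macrophages, rose by 2.16 (SE 0.38, adjusted p = 3.82e-05), and Csf1r, the receptor for Csf1, by 1.76 (SE 0.30, adjusted p = 2.22e-05). Adgre1, the F4/80 antigen, rose by 0.81 (SE 0.30, adjusted p = 0.0188), and its call was lost without responder 5 (0.54, adjusted p = 0.0536) or control 4 (0.73, adjusted p = 0.0547). Cd163, the haemoglobin scavenger receptor, fell by 1.81 (SE 0.47, adjusted p = 0.00179), a call lost with the covariate (-1.20, adjusted p = 0.092) and with responder 5 alone.

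Among genes of alternatively activated and resident macrophages, 2 of 11 rose and 4 fell, against 30.1% and 33.7% of all genes, with a median of 0.18. These counts depended on the tumours included: 4 rose without responder 2, 7 or 8, in DESeq2 and with the 4 responders at a share of at least 70%, and 1 fell with the covariate. Responder 5 alone gave 4 higher and none lower, at a median of 1.04. Over the 13 omissions of 1 tumour the median ran from -0.30 to 0.30. Arg1, which consumes arginine, stood at 17.1, 6.41, 12.4, 14.3 and 32.5 CPM in the controls and from 27.8 to 629 CPM (median 200.1) in the responders, and rose by 3.91 (SE 0.96, adjusted p = 0.00123). Clec4n, the lectin dectin-2, rose by 3.24 (SE 0.59, adjusted p = 5.76e-05). Retnla, a classical target of interleukin-4, fell by 1.97 (SE 0.71, adjusted p = 0.0188). Lyve1, a hyaluronan receptor of perivascular macrophages and lymph vessels, fell by 1.95 (adjusted p = 0.00194), Cd209b, a lectin of marginal-zone type macrophages, by 2.79 (adjusted p = 0.000433) and Cbr2, a carbonyl reductase, by 2.55 (adjusted p = 0.000119). With the covariate the changes of Retnla (-0.84), Lyve1 (-0.86) and Cd209b (-1.33) no longer passed, and Retnla also missed without control 5 (-1.74, adjusted p = 0.0518). Without responder 5 Retnla was at -3.05 and Lyve1 at -2.58.

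Monocyte genes rose in 4 of 7, Chil3 and Ly6i with the values above, and 1 fell without responder 5, in DESeq2 and in limma with a filter. Ly6c2, the marker of inflammatory monocytes, rose by 2.62 (SE 0.55, adjusted p = 0.000267), and Ccr2, their receptor for Ccl2, by 1.12 (SE 0.34, adjusted p = 0.00616). Responder 5 at 236 CPM and control 5 at 86.2 CPM were the highest of their groups for Ccr2.

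Dendritic cell genes rose in 8 of 12 with 2 lower and a median of 1.27. Of the lower genes 1 was called with the covariate and none with responder 5 alone. Clec9a, a receptor of cross-presenting dendritic cells, rose by 3.89 (SE 0.45, adjusted p = 2.79e-07), with the shared reads named above for Clec1b. Ccl22, a chemokine of mature dendritic cells that draws regulatory T cells, rose by 2.21 (SE 0.43, adjusted p = 0.000125). Xcr1, a chemokine receptor of cross-presenting cells, rose by 1.18 (SE 0.46, adjusted p = 0.0273). The call of Xcr1 was lost without responder 5 (0.94, adjusted p = 0.0661), responder 6 (1.07, adjusted p = 0.0501), control 1 (1.06, adjusted p = 0.0714), control 2 (1.02, adjusted p = 0.0752) or control 4 (1.11, adjusted p = 0.0619). Those that fell were Cadm1 (-1.20, adjusted p = 0.000113), an adhesion molecule, and Fscn1 (-0.65, adjusted p = 0.00105), an actin bundler, both also found in other cells. The call of Fscn1 was lost with the covariate (-0.36, adjusted p = 0.12).

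Granulocyte lists went in different directions. Neutrophil genes rose in 9 of 9, with a median of 2.38, and 4 did not overlap. Of 12 members 9 were tested, and low members may have passed the filter only through treated tumours. With the stricter filter, which can also remove members, 2 were called. In limma on RPKM 3 of 5 tested members were called with a filter, and 5 members without one. Retnlg, a resistin-like protein of neutrophils, rose by 4.00 (SE 0.99, adjusted p = 0.00116) and Trem1, an activating receptor, by 4.08 (SE 0.85, adjusted p = 0.000244). S100a8 and S100a9, the calprotectin subunits, rose by 2.10 (SE 0.86, adjusted p = 0.0358) and 2.38 (SE 0.98, adjusted p = 0.0372). Responder 2 was high for this list: without it 5 of the 9 were called, Trem1 was at 3.38, and S100a8 (1.34, adjusted p = 0.138) and S100a9 (1.19, adjusted p = 0.229) did not pass. S100a8 also missed without responder 5 (1.91, adjusted p = 0.058), control 1 (1.91, adjusted p = 0.0826), control 2 (1.93, adjusted p = 0.0796) or control 5 (1.90, adjusted p = 0.0817). S100a9 missed without control 1 (2.15, adjusted p = 0.0852), control 2 (2.22, adjusted p = 0.0786), control 3 (2.29, adjusted p = 0.0692) or control 5 (2.10, adjusted p = 0.0809), and was at 3.59 without control 4.

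Eosinophil genes rose in 4 of 5. In limma on RPKM with a filter 2 of 3 tested members rose and 1 fell. With the stricter filter 1 rose, and without responder 5 1 fell. Siglecf, a sialic-acid receptor of eosinophils, rose by 1.95 (SE 0.55, adjusted p = 0.00327), Ccr3, the eotaxin receptor, by 4.09 (SE 0.86, adjusted p = 0.000246), Prg2, the granule major basic protein, by 3.79 (SE 0.71, adjusted p = 7.25e-05) and Il5ra, the interleukin-5 receptor, by 3.07 (SE 0.81, adjusted p = 0.00208). All are low: Ccr3 stood from 0.0737 to 0.310 CPM (median 0.192) in the controls and from 0.901 to 11.0 CPM (median 2.12) in the responders. Mast cell genes fell in 5 of 8, with a median of -1.69. None of them was called with responder 5 alone. The proteases Cpa3, Mcpt4 and Cma1 fell by 1.90 (SE 0.46, adjusted p = 0.000973), 1.66 (SE 0.39, adjusted p = 0.000731) and 1.95 (SE 0.37, adjusted p = 8.29e-05). Gata2, a transcription factor of mast cells, fell by 2.07 (SE 0.35, adjusted p = 2.48e-05) and Fcer1a, the IgE receptor, by 1.72 (SE 0.55, adjusted p = 0.00872). With the covariate the changes of Cpa3 (-0.34), Mcpt4 (-0.63) and Fcer1a (-1.28) no longer passed, and 2 members remained called.

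B cell genes rose in 10 of 10, with a median of 2.81, but only Cd22 did not overlap between the groups. Most members are low in counts and may have passed the filter only through treated tumours. With the stricter filter, which can also remove members, 2 were called. In limma on RPKM 2 of 3 tested members were called with a filter, and 6 members without one. In the fit of the 13 tumours alone 7 of 8 tested members were called, without responder 5 7, and with responder 5 alone 4. Cd22, an inhibitory lectin of B cells, stood at 2.23, 2.91, 2.43, 2.05 and 5.69 CPM in the controls and from 17.6 to 35.0 CPM (median 21.1) in the responders, and rose by 2.95 (SE 0.41, adjusted p = 2.37e-06). Ms4a1, the CD20 antigen, stood from 0 to 0.259 CPM (median 0.133) in the controls and from 0 to 5.00 CPM (median 0.961) in the responders, and rose by 3.27 (SE 0.90, adjusted p = 0.00287). Its value was 2.54 without responder 6. Responder 1, which has the lowest protein-coding share, had 0 counts for Ms4a1. Plasma cell genes rose in 5 of 7 with 1 lower. In the fit of the 13 tumours alone 4 of 6 tested plasma cell genes rose and 1 fell. In limma on RPKM with a filter 3 of 5 tested members rose and 1 fell, and with the stricter filter 2 rose. With responder 5 alone the median of the list was 3.77. Pou2af1, a coactivator of antibody genes, rose by 3.88 (SE 0.85, adjusted p = 0.000361), Mzb1, an antibody chaperone, by 3.76 (SE 1.05, adjusted p = 0.00316), Jchain, the joining chain, by 3.72 (SE 0.82, adjusted p = 0.000438) and Prdm1, the plasma cell factor also used by T cells, by 2.02 (SE 0.33, adjusted p = 1.6e-05). Fkbp11, a secretory foldase, fell by 1.84 (SE 0.25, adjusted p = 1.88e-06). Without control 3 the value of Jchain was 4.40.

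**Figure D4:**
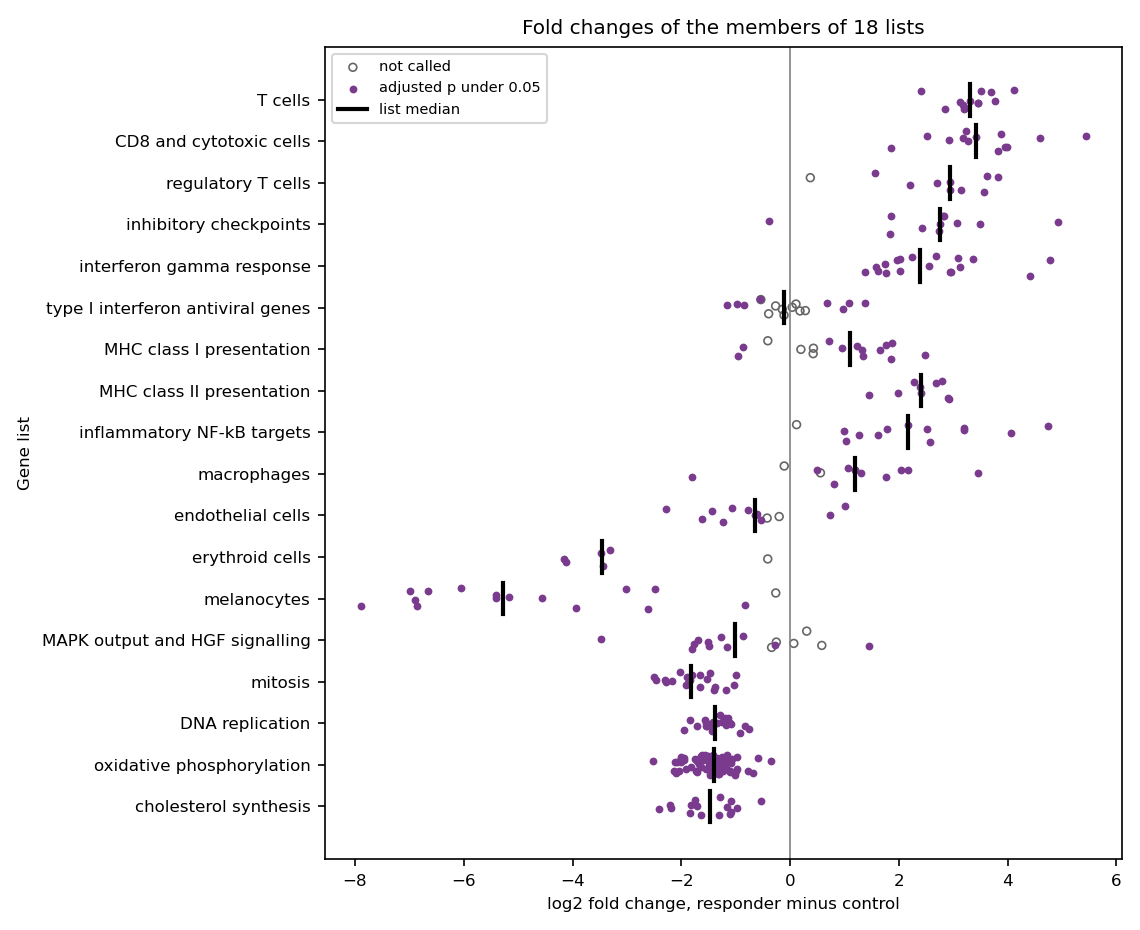
log2 fold change, responder minus control, of each tested member of 18 lists; filled points passed at an adjusted p under 0.05, open points did not, and the black bar is the list's median. All members of the T cell, CD8 and interferon gamma lists lie above 0, and those of the mitosis, replication, oxidative phosphorylation and cholesterol lists lie below 0.

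Pigment genes had the lowest median of any list. Of the melanocyte genes, 15 of 16 fell, against 33.7% of all tested protein-coding genes, with a median of -5.29, and the same number did not overlap, against 17.8%. Tyr, the rate-limiting enzyme of melanin synthesis, stood at 1108, 843, 723, 1018 and 831 CPM in the controls and from 0 to 19.8 CPM (median 6.74) in the responders, and fell by 6.87 (SE 1.02, adjusted p = 6.37e-06). Dct and Tyrp1, the related enzymes, fell by 6.90 (SE 1.16, adjusted p = 2.43e-05) and 5.41 (SE 0.70, adjusted p = 1.13e-06). Gpr143, a melanosome receptor, fell by 6.99 (SE 0.98, adjusted p = 2.85e-06). Without responder 2 the value of Gpr143 was -8.64, and without responder 6 that of Dct was -7.60.

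The lineage factors fell too, with smaller fitted changes. Mitf stood at 556, 379.8, 337, 591 and 402 CPM in the controls and from 60.3 to 111 CPM (median 81.8) in the responders, and fell by 2.48 (SE 0.27, adjusted p = 2.07e-07). Sox10, the neural crest factor upstream of Mitf, stood at 356, 365, 321, 391 and 349 CPM in the controls and from 128 to 314 CPM (median 199) in the responders, and fell by 0.82 (SE 0.17, adjusted p = 0.00025). All responders lay below all controls for both. Kit, the receptor of the melanocyte growth factor and also of mast cells, did not pass, at -0.26 (SE 0.18, adjusted p = 0.189). The melanocyte score ran from 0.74 in responder 3 to 3.97 in responder 6, and from 7.52 to 8.35 in the controls. With the covariate and with responder 5 alone the pigment enzymes remained lower: Tyr was at -6.86 and -11.31, and Tyrp1 at -5.06 and -6.06.

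MITF binds the M-box, and the letters TCATGTG were searched on either strand in the same 250-base windows. They are in 5 of 10 melanocyte promoters with an entry (Tyr, Dct, Tyrp1, Slc24a5 and Trpm1) and in 3.22% of all promoters. Tyr (chr7:87493513-87493762, minus strand) and Tyrp1 (chr4:80833963-80834212, plus strand) are shown as a pair of pigment enzymes, with the motif in capitals.
Tyr: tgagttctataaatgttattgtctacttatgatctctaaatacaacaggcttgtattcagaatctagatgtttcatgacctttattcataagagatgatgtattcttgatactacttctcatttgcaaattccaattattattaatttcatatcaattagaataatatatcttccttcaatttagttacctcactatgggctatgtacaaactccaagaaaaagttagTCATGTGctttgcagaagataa
Tyrp1: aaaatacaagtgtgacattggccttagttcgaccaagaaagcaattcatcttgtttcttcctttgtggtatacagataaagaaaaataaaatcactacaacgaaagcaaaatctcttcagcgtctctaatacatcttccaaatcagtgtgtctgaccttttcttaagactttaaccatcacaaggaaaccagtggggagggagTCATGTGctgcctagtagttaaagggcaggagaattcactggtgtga
Each window has 1 match. It describes the letters and not a bound site.

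Genes downstream of MAPK signalling, and of HGF and its receptor, fell in 10 of 16, with 1 higher and a median of -1.02. The number that fell was 6 with responder 5 alone, and without control 3 2 were higher. Met, the HGF receptor, stood at 1081, 949, 816, 1116 and 1174 CPM in the controls and from 51.3 to 235 CPM (median 69.5) in the responders, and fell by 3.48 (SE 0.47, adjusted p = 1.58e-06). Responder 3 was the highest responder for Met, at 235 CPM, and still below every control. Dusp6 and Dusp4, phosphatases that ERK induces as feedback, fell by 1.52 (SE 0.17, adjusted p = 2.69e-07) and 1.80 (SE 0.23, adjusted p = 8.39e-07), and Spry4, another feedback inhibitor, by 0.86 (SE 0.21, adjusted p = 0.00105). Hgf itself rose by 1.45 (SE 0.27, adjusted p = 6.99e-05), and stood from 4.05 to 7.29 CPM (median 4.66) in the controls and from 9.15 to 19.7 CPM (median 12.4) in the responders.

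Markers of the dedifferentiated melanoma state rose in 4 of 12, near the 30.1% of all genes, with 1 lower and a median of 0.39. Ngfr, a neural crest receptor, rose by 1.27 (SE 0.35, adjusted p = 0.00301) and Axl, a receptor kinase also found on macrophages, by 1.38 (SE 0.21, adjusted p = 6.51e-06). Nes, the filament protein nestin, rose by 1.01 (adjusted p = 0.000844) and Egfr by 0.59 (adjusted p = 0.0277). The call of Egfr was lost with the covariate (0.63, adjusted p = 0.0846) and without responder 2 (0.52, adjusted p = 0.0536), control 1 (0.45, adjusted p = 0.101) or control 4 (0.51, adjusted p = 0.0783). Twist1, an epithelial to mesenchymal transition factor, fell by 0.39 (adjusted p = 0.0422), a call lost with the covariate (-0.16, adjusted p = 0.526) and without any 1 of responders 1, 2, 4, 6, 7 and 8 and controls 1, 2, 4 and 5, with changes of -0.51 to -0.32 over the 13 fits that leave out 1 tumour.

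Among p53 targets 4 of 15 rose and 2 fell, and the median was 0.14. Both shares were below those of all genes. The counts were 2 and 1 with responder 5 alone, and 1 fell with the covariate, with the 4 responders, with the stricter filter and in limma. Fas, a death receptor that interferon also induces, rose by 2.45 (SE 0.37, adjusted p = 6.64e-06). Bbc3 and Pmaip1, the death proteins PUMA and NOXA, rose by 1.00 (adjusted p = 0.000118) and 1.07 (adjusted p = 0.002). Cdkn1a, the cell cycle inhibitor p21, rose by 0.75 (adjusted p = 0.0285), a call lost with the covariate (0.47, adjusted p = 0.303) and without responder 1 (0.65, adjusted p = 0.0579), responder 2 (0.67, adjusted p = 0.0531), control 1 (0.59, adjusted p = 0.0961), control 4 (0.67, adjusted p = 0.0737) or control 5 (0.66, adjusted p = 0.0777). Mdm2, the p53 ligase, was at 0.26 (SE 0.14, adjusted p = 0.114). Plk2, a polo-like kinase, fell by 1.75 (SE 0.17, adjusted p = 8.38e-08) and Sesn1, a sestrin, by 0.40 (adjusted p = 0.0155), the latter not with the covariate (-0.19, adjusted p = 0.398).

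Cell division genes fell without exception among those tested. Of the mitosis genes, 20 of 20 fell, with a median of -1.82, and of the DNA replication genes, 22 of 22, with a median of -1.38. In all 42 every responder lay below every control. The list medians with responder 5 alone were -1.78 for mitosis and -1.14 for replication. Cdk1, the kinase that starts mitosis, stood at 86.7, 59.5, 57.0, 74.3 and 76.8 CPM in the controls and from 7.59 to 23.2 CPM (median 14.7) in the responders, and fell by 2.18 (SE 0.25, adjusted p = 2.42e-07). Ccnb1 and Ccnb2, its cyclin partners, fell by 2.47 (SE 0.27, adjusted p = 1.81e-07) and 2.50 (SE 0.30, adjusted p = 3.82e-07), and Mki67, the Ki-67 antigen, by 1.18 (SE 0.21, adjusted p = 5.3e-05). Mcm2 and Mcm5, subunits of the replicative helicase, fell by 1.83 (SE 0.20, adjusted p = 1.61e-07) and 1.96 (SE 0.21, adjusted p = 1.66e-07). Pcna, the sliding clamp, stood at 141, 109.7, 101, 138 and 133 CPM in the controls and from 24.3 to 85.5 CPM (median 35.7) in the responders, and fell by 1.57 (SE 0.23, adjusted p = 5.6e-06). With responder 5 as the only responder, Cdk1 was at -1.72 (adjusted p = 0.0328) and Pcna at -0.58 (adjusted p = 0.265).

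Many mitotic genes carry CCAAT boxes in their promoters, and this motif was searched in the same windows. CCAAT is in 15 of 17 mitosis promoters with an entry, in 11 of 18 replication promoters and in 34.5% of all promoters. The letters TTTGAA of the cell cycle homology region are in 7 of 17 mitosis promoters and in 16.3% of all. Cdk1 (chr10:69352913-69353162, minus strand) and Ccnb1 (chr13:100786487-100786736, minus strand) are shown as the kinase and the cyclin of 1 complex, with CCAAT or its reverse complement in capitals.
Cdk1: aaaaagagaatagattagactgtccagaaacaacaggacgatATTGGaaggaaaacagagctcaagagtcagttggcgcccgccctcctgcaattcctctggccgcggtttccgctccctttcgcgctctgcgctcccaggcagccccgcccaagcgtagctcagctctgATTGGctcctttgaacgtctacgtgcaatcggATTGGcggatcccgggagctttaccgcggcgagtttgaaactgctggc
Ccnb1: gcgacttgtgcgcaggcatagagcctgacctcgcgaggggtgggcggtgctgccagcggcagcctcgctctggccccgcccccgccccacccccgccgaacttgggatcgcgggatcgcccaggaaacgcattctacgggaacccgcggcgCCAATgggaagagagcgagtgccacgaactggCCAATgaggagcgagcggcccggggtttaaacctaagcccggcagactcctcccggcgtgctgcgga
The Cdk1 window has 3 matches and the Ccnb1 window 2.

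Genes of growth and energy metabolism fell broadly. All 77 of 77 nuclear oxidative phosphorylation genes fell, with a median of -1.41, and 71 did not overlap. Atp5a1 and Atp5b, the catalytic core of ATP synthase, fell by 1.46 (SE 0.21, adjusted p = 3.56e-06) and 2.11 (SE 0.25, adjusted p = 3.93e-07). Ndufa4 and Cox7a2, small subunits tied to cytochrome oxidase, fell by 2.52 (SE 0.28, adjusted p = 1.94e-07) and 2.14 (SE 0.29, adjusted p = 1.74e-06). With the covariate 75 of the 77 were called, at a median of -1.05. With responder 5 alone 3 were called, at a median of -0.60. For Atp5a1, responder 5 at 492 CPM stood above the other responders, 196 to 298 CPM, and the controls stood from 578 to 934 CPM (median 716).

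The cytosolic ribosomal proteins fell in 72 of 79, with a median of -0.85. Rpl10a fell by 0.99 (SE 0.16, adjusted p = 1.44e-05) and Rpl10 by 0.84 (SE 0.26, adjusted p = 0.00764). The calls of this list depended on the fit, and the role of composition was not tested. With the covariate 29 were called lower and 1 higher, at a median of -0.46. With the 4 responders at a share of at least 70%, 40 were lower. With responder 5 alone none was called, at a median of -0.01. Rpl10 was at -0.32 (adjusted p = 0.34) with the covariate. Ribosomal protein genes have many processed copies, so reads may be split. Ribosome biogenesis genes fell in 12 of 16, with a median of -0.85. Only 1 of them was called lower with responder 5 alone. Myc, which drives these genes, stood at 64.5, 49.9, 69.1, 89.9 and 64.1 CPM in the controls and from 16.1 to 42.2 CPM (median 31.5) in the responders, and fell by 1.18 (SE 0.24, adjusted p = 0.000151). Ncl, nucleolin, fell by 0.98 (SE 0.15, adjusted p = 6.82e-06) and Nop58, a ribonucleoprotein core protein, by 1.11 (SE 0.15, adjusted p = 1.3e-06).

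Cholesterol synthesis genes fell in 16 of 16, with a median of -1.47 and 14 not overlapping. With the covariate 16 fell, and with responder 5 alone 1, at a median of -1.20. Sqle, squalene epoxidase, stood at 146, 155, 121, 129 and 156 CPM in the controls and from 15.8 to 61.3 CPM (median 28.8) in the responders, and fell by 2.21 (SE 0.32, adjusted p = 3.78e-06). Idi1, an isomerase of the path, fell by 2.40 (SE 0.33, adjusted p = 2.36e-06). Glycolysis and hypoxia genes fell in 13 of 19, with a median of -1.17. The count was 10 with the covariate, and with responder 5 alone none was called lower. Car9, a carbonic anhydrase induced by hypoxia, stood at 52.1, 120.0, 57.3, 86.1 and 29.7 CPM in the controls and from 1.08 to 6.71 CPM (median 3.21) in the responders, and fell by 4.38 (SE 0.54, adjusted p = 6.41e-07). Pgk1, a glycolytic kinase, fell by 1.81 (SE 0.33, adjusted p = 6.15e-05). Slc2a1, the glucose transporter GLUT1, and Vegfa, the vascular growth factor, did not pass, at -0.38 (SE 0.33, adjusted p = 0.329) and 0.28 (SE 0.22, adjusted p = 0.259). Hypoxia targets were thus not lower as 1 block.

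Of the stress genes 1 of 15 rose and 3 fell, with a median of -0.27. The number that fell was 6 without responder 5, 5 without responder 3, 1 with the 4 responders, and none with the covariate or with responder 5 alone. The number that rose was 2 without control 3, with each of those 3 alternatives, in DESeq2 and in limma. Sesn2, a stress-induced sestrin, rose by 0.84 (adjusted p = 0.0002). Pdia4 and Hsp90b1, chaperones of the endoplasmic reticulum, fell by 0.93 (adjusted p = 0.00151) and 0.73 (adjusted p = 0.00416), and Phgdh, the first enzyme of serine synthesis, by 0.51 (adjusted p = 0.0354). None of the 3 passed with the covariate (-0.46, adjusted p = 0.133, then -0.37, adjusted p = 0.197 and -0.22, adjusted p = 0.495). Phgdh missed without any 1 of responders 4, 6, 7 and 8 and controls 1, 4 and 5, with changes of -0.66 to -0.43 over all 13. Hspa5 and Ddit3, which encode the chaperone BiP and the transcription factor CHOP, were at -0.39 (SE 0.25, adjusted p = 0.18) and -0.63 (SE 0.29, adjusted p = 0.058). Lysosome genes fell in 7 of 16 and 2 rose. With the covariate 3 fell, and with responder 5 alone none did and 1 rose. Only 1 rose, too, with RLE scaling, with no filter and in the fit of the 13 tumours alone. Ctss, a cathepsin of antigen-presenting cells, stood at 124, 129.7, 111, 117 and 247 CPM in the controls and from 578 to 2509 CPM (median 1219) in the responders, and rose by 3.30 (SE 0.57, adjusted p = 3.18e-05). Npc2, a cholesterol carrier, rose by 0.57 (adjusted p = 0.0477), which the omission of any 1 of responders 1, 2, 3 and 5 and controls 1, 2, 3, 4 and 5 ended, with changes of 0.45 to 0.65 over all 13. Cd63, a tetraspanin of melanosomes and lysosomes, fell by 1.38 (SE 0.22, adjusted p = 1.01e-05). Ctsb, a cathepsin, and Lamp1, a membrane protein, fell by 1.02 (adjusted p = 0.000672) and 0.93 (adjusted p = 0.00122), and neither passed with the covariate (-0.67, adjusted p = 0.0504 and -0.44, adjusted p = 0.115).

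Of the endothelial list, 9 of 13 fell and 2 rose, with a median of -0.64. With the covariate 5 fell and 1 rose, and with responder 5 alone 4 fell and 1 rose. Without a filter 1 rose. Kdr, the main receptor for Vegfa, stood at 42.5, 56.6, 52.6, 45.5 and 54.1 CPM in the controls and from 5.36 to 36.1 CPM (median 13.9) in the responders, and fell by 1.62 (SE 0.28, adjusted p = 3.41e-05). Emcn, a sialomucin of capillaries, fell by 2.29 (SE 0.24, adjusted p = 1.4e-07), Cdh5, the cadherin of endothelial junctions, by 1.43 (SE 0.23, adjusted p = 1.26e-05) and Pecam1, the CD31 antigen, by 0.54 (SE 0.19, adjusted p = 0.0149). The call of Pecam1 was lost with the covariate (-0.29, adjusted p = 0.327) and without control 2 (-0.44, adjusted p = 0.0594). Flt1, the decoy receptor of Vegfa that is also made by macrophages, rose by 1.01 (adjusted p = 0.000877) and Vwf, the clotting protein, by 0.74 (adjusted p = 0.0235). Vwf did not pass with the covariate (0.51, adjusted p = 0.229) or without control 1 (0.66, adjusted p = 0.065), control 3 (0.70, adjusted p = 0.0505) or control 5 (0.65, adjusted p = 0.0661).

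Pericyte and smooth muscle genes fell in 5 of 9, with a median of -1.02. The count was 3 with the covariate and with the stricter filter, and 2 with responder 5 alone. Rgs5, a pericyte marker, fell by 2.00 (SE 0.24, adjusted p = 3.99e-07). Abcc9 and Kcnj8, the subunits of a pericyte potassium channel, fell by 1.43 (SE 0.19, adjusted p = 1.73e-06) and 1.32 (adjusted p = 0.00012). Higd1b, another pericyte marker, fell by 1.57 (adjusted p = 0.00457), and not with the covariate (-1.51, adjusted p = 0.0658). Myh11, smooth muscle myosin, fell by 0.54 (adjusted p = 0.0341), a call lost with the covariate (-0.28, adjusted p = 0.423) and without any 1 of responders 1, 2, 3, 4 and 7 and controls 2, 4 and 5, and over the 13 fits that leave out 1 tumour its change ran from -0.68 to -0.40.

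Red cell genes fell in 5 of 6, with a median of -3.46. In limma on RPKM with a filter 2 of 3 tested members were called lower. With responder 5 alone the median of the list was -3.64. Hba-a1 and Hba-a2, the alpha globins, fell by 4.15 (SE 0.45, adjusted p = 1.78e-07) and 3.31 (SE 0.44, adjusted p = 1.51e-06), and Hbb-bt and Hbb-bs, the beta globins, by 4.12 (SE 0.51, adjusted p = 7.16e-07) and 3.43 (SE 0.43, adjusted p = 6.85e-07). The alpha globins summed to 41.8, 39.1, 132, 219 and 23.3 CPM in controls 1 to 5 and to 3.60 to 10.8 CPM in the responders, and the beta globins to 25.9 to 233 and 3.81 to 12.3 CPM. Control 4 was the highest control, and without it Hba-a1 was at -3.52, Hba-a2 at -2.71 and Hbb-bt at -3.14. Alas2, the first enzyme of haem synthesis in red cells, fell by 3.49 (SE 0.60, adjusted p = 2.7e-05) in the counts, and by 2.82 without control 4. In the deposited RPKM values the same gene was at 0.15 (adjusted p = 0.621) by limma. Each globin pair is near-identical in sequence.

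Fibroblast genes rose in 4 of 11, near the 30.1% of all genes, with a median of 0.55, and none passed the requirement of at least 2-fold. With the covariate 8 rose, against 23.3% of all genes, and with the 4 responders 8 rose, against 3879 of 14785 genes. Col1a1 and Col1a2, the chains of type I collagen, rose by 1.59 (SE 0.36, adjusted p = 0.000513) and 1.09 (SE 0.25, adjusted p = 0.000676). Pdgfra and Pdgfrb, the growth factor receptors of fibroblasts, rose by 0.95 (SE 0.28, adjusted p = 0.0052) and 0.85 (adjusted p = 0.0004). Matrix and protease genes rose in 13 of 23 with 2 lower and a median of 0.64. Without a filter 8 rose, and none was lower with the covariate, the 4 responders, responder 5 alone or the stricter filter. Mmp13, a collagenase, stood at 4.33, 2.10, 1.45, 1.70 and 2.02 CPM in the controls and from 9.11 to 141 CPM (median 17.7) in the responders, and rose by 3.98 (SE 0.70, adjusted p = 3.77e-05). Without responder 2 its change was 3.24. Mmp12, the macrophage elastase, stood at 21.6, 21.3, 14.3, 16.5 and 24.4 CPM in the controls and from 33.1 to 460.2 CPM (median 239) in the responders, and rose by 3.71 (SE 0.77, adjusted p = 0.00024). Mmp14, a membrane protease, rose by 0.39 (adjusted p = 0.0468), a call that the omission of any 1 of responders 2, 3, 5 and 7 and controls 1, 2, 3, 4 and 5 ended, with changes of 0.31 to 0.45 over all 13. Fn1, fibronectin, did not pass, at 0.18 (SE 0.37, adjusted p = 0.68). Col4a1, a basement membrane collagen, and Sparc, a matricellular protein, fell by 0.41 (adjusted p = 0.0119) and 0.47 (adjusted p = 0.0334), and neither passed with the covariate (-0.34, adjusted p = 0.111 and 0.05, adjusted p = 0.813). Sparc also missed without any 1 of responders 4, 6 and 8 and controls 2 and 5 (-0.61 to -0.38 over all 13).

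Of the TGF-beta genes 7 of 13 rose and 4 fell, with a median of 0.62. The number that fell was 2 with the covariate and with the 4 responders, and 1 with responder 5 alone. Tgfb1, the ligand of immune and stromal cells, stood at 16.7, 24.7, 26.7, 24.7 and 26.4 CPM in the controls and from 46.0 to 73.6 CPM (median 54.5) in the responders, and rose by 1.26 (SE 0.17, adjusted p = 1.57e-06). Tgfbi, a target gene, rose by 1.57 (SE 0.32, adjusted p = 0.000168) and Ltbp2, a latent-binding relative, by 1.94 (SE 0.35, adjusted p = 4.18e-05). Those that fell were Ltbp1 (-1.29, adjusted p = 4.83e-06), which anchors the latent ligand, the ligand Tgfb2 (-0.63, adjusted p = 0.00368), the receptor Tgfbr2 (-0.44, adjusted p = 0.0202) and the signal carrier Smad3 (-0.38, adjusted p = 0.000666). With the covariate Tgfb2 was at -0.34 (adjusted p = 0.21) and Tgfbr2 at -0.04 (adjusted p = 0.846).

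Lists for tissues that a tumour piece may include gave little. Of the 10 keratinocyte genes none passed in edgeR's test, and none had an unadjusted p under 0.05. Krt5 and Krt14, the keratins of basal epidermis, were at 1.38 (SE 1.36, adjusted p = 0.383) and 1.20 (SE 1.40, adjusted p = 0.465), with Krt5 from 1.77 to 150.0 CPM (median 21.3) in the controls and from 0.0537 to 309.5 CPM (median 82.5) in the responders. These genes rested on single tumours. Krt1, a keratin of the upper epidermis, was at 0.62 (SE 1.90, adjusted p = 0.787), at -5.91 (adjusted p = 0.0159) without responder 8 and at 6.30 (adjusted p = 0.0478) without control 3. Lor, the cornified protein loricrin, was at -4.53 (adjusted p = 0.0366) and Krt10, the partner of Krt1, at -3.94 (adjusted p = 0.0357) without responder 8. DESeq2 called Krt1 (-5.96, adjusted p = 0.00974) and Lor (-4.59, adjusted p = 0.0286) lower. Of the 10 skeletal muscle genes none passed, and none had an unadjusted p under 0.05, with Acta1 at -0.72 (SE 0.53, adjusted p = 0.24) and Ckm at -0.94 (SE 0.56, adjusted p = 0.146). Without control 1, Ckm (-1.24, adjusted p = 0.0408) and Tnnt3, a troponin (-1.14, adjusted p = 0.037), passed, and without control 2, Mb, myoglobin (1.20, adjusted p = 0.0253). Mb also passed in limma on log2(RPKM + 1) (1.08, adjusted p = 0.0123). Responder 1 was the lowest responder for muscle, with a score of 1.76 against 4.17 to 5.78 in the other 7. Of the adipocyte genes 1 of 9 passed, Pparg, the fat cell receptor also used by macrophages, which fell by 1.06 (SE 0.26, adjusted p = 0.000939), a call lost with responder 5 alone. Adipoq and Plin1, the fat cell hormone adiponectin and the droplet protein perilipin, were at -0.36 (SE 0.61, adjusted p = 0.62) and 0.17 (SE 0.57, adjusted p = 0.804).

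Schwann cell genes rose in 5 of 8 with 1 lower. With the covariate, with the 4 responders and with responder 5 alone 3 rose and none fell. Mag, a myelin glycoprotein, rose by 2.46 (SE 0.42, adjusted p = 2.44e-05). Egr2, the myelination factor also induced in activated T cells, rose by 1.38 (adjusted p = 0.000175), Drp2, a dystrophin relative that binds periaxin, by 1.30 (adjusted p = 0.00926), Mbp, myelin basic protein, by 0.84 (adjusted p = 0.00751) and Prx, periaxin, by 0.52 (adjusted p = 0.0253). Pmp2, a myelin lipid carrier, fell by 1.60 (SE 0.53, adjusted p = 0.01). The calls of Drp2 (1.27, adjusted p = 0.0678), Prx (0.40, adjusted p = 0.216) and Pmp2 (-0.33, adjusted p = 0.733) were lost with the covariate, and that of Prx also without control 1 (0.46, adjusted p = 0.0704) or control 4 (0.47, adjusted p = 0.0675).

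The plot of list scores against the protein-coding share sets the immune and tumour programmes beside library composition. In responder 5, whose share of 87.0% is within the control range, the T cell score was 4.56 against 0.17 to 1.66 in the controls. Its interferon gamma score was 7.48 against 3.98 to 5.20, and its melanocyte score 1.91 against 7.52 to 8.35. Its mitosis score was 4.24 against 5.58 to 6.12. Its cytosolic ribosomal protein score was 8.30, within the 8.05 to 8.42 of the controls. In this 1 tumour the T cell, interferon gamma, melanocyte and mitosis scores lay outside the control range and the ribosomal protein score did not. Its oxidative phosphorylation score was 5.80, between the other responders (4.52 to 5.14) and the controls (6.16 to 6.61). Its protein-coding share was within the control range, but its mitochondrial ribosomal RNA share, 1.15%, was above the 0.546% to 0.966% of the controls. The role of composition was not tested.

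**Figure D5:**
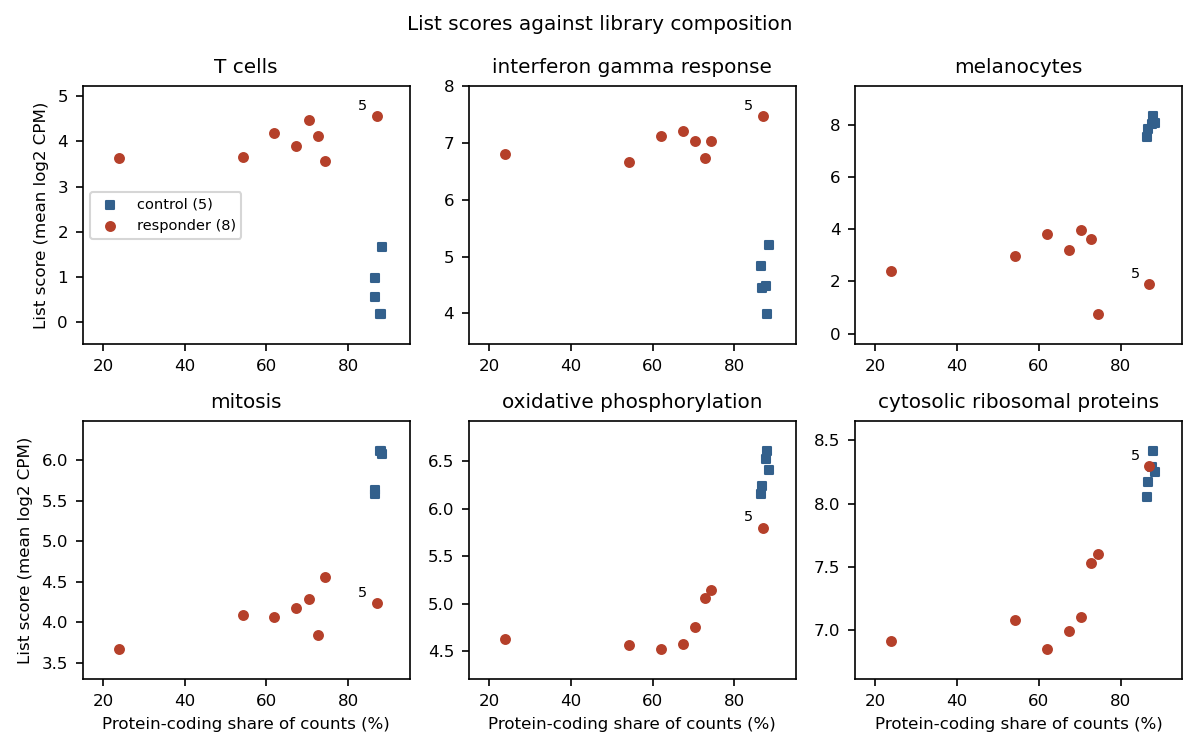
Score of 6 lists (mean log2 CPM, y axis) against the share of counts in protein-coding genes (percent, x axis) for 5 controls (squares) and 8 responders (circles), with responder 5 labelled. Responder 5, at 87.0%, lies beyond the controls on the side of the other responders for T cells, interferon gamma, melanocytes and mitosis. It lies within the controls for cytosolic ribosomal proteins, and between the other responders and the controls for oxidative phosphorylation.

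Of the 232 genes named by value, 208 passed the test. With the covariate 168 of the 208 were called in the same direction, and with the 4 responders at a share of at least 70% 186 were. With responder 5 as the only responder 198 kept their direction and 129 were still called. The call of 190 of the 208 survived the omission of each single tumour in turn.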

How the data were processed

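RNA of 25 B2905 melanomas was sequenced, and 13 tumours, 8 responders and 5 IgG2b controls, enter the comparison. Read processing is given only in the submitters' processing notes, which name bcl2fastq 2.17, Trimmomatic, STAR 2.5.1, RSEM 1.2.22 and the mm10 genome without stating parameters. The authors deposited expected counts per gene for all 25 tumours, estimates made upstream with the tools above, with 5.64% of the values not whole, and a second table of RPKM values by gene symbol, deposited by the authors with no statement of its gene lengths or denominator. The labels' protocols name a stranded total RNA kit while the molecule label says polyA RNA, and the strand setting of the counting is not given in the sources used here. Library numbers follow the groups, so the order of processing and the group cannot be told apart.

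Counts were rounded, all 55450 gene IDs matched GENCODE M21, and 18031 genes that passed edgeR's low-count filter, 14753 of them protein-coding, were fitted over all 4 groups with TMM scaling and edgeR's quasi-likelihood test (edgeR 4.0.16, limma 3.58.1, DESeq2 1.42.0, R 4.3.3), with Benjamini-Hochberg adjustment over all 18031 genes and a threshold of 0.05. Log values use a prior count of 2. A gene at 0 in a group was set against a floor of 3 counts pooled over that group, ratios of low counts have 95% exact (Clopper-Pearson) intervals, and both cover counting error only. On simulated counts for 18031 genes, 200 were changed. The fit of this comparison recovered 53% of the genes changed 2-fold and 81% of those changed 4-fold, and 3.60% of its calls were false. Each simulated gene had a single mean and spread over all tumours, apart from the changed genes, which rose and fell in equal numbers. These rates therefore do not cover library composition that moves with the group, or as many changed genes as were called here. No pair of replicates agreed within sampling noise (smallest chi-square per gene 24.8), and 0 columns belonged to other samples.

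The comparison, the gene lists and the motifs were chosen with earlier results of these data known. By rule the text names the first 2 genes of each list and, among called protein-coding genes that average 1 CPM or more across the 13 tumours, the 2 of each list with the largest change, the 8 highest and the 8 lowest, then Ctla4 and Foxp3. Predicted genes, receptor and immunoglobulin segments, ribosomal protein, mitochondrial and Y-linked genes were left out of the choice by change. The text gives 171 genes chosen by this rule, and 6 others that it chose are not reported here. The other 61 are mostly members of small counts and were chosen after their values were seen. Of the 737 list genes, 14 did not pass the low-count filter, and 2 listed symbols were not protein-coding in the annotation. Alternatives were DESeq2, RLE scaling, no filter and a stricter filter, a fit of the 13 tumours alone, protein-coding genes only, the protein-coding share as covariate, a 2-fold requirement, limma on log2(RPKM + 1) or log2(RPKM + 0.1), and the omission of each tumour. The fits with the 4 responders at a share of at least 70% and with responder 5 alone were chosen after seeing the data. With responder 5 alone, that tumour is assumed to vary like the other groups.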

Additional observations from a re-analysis of the deposited data

Results flagged for a closer look

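Each value below comes from a tumour that stood apart from the rest of its own group, measured as the gap to its nearest neighbour divided by the range of the group. Of 564 groups of 8 responders or 5 controls examined, 46 were picked out, and about 28.2 would be by chance, 1 in 20. Values are log2 CPM for genes and mean log2 CPM for lists, given for the tumour and then for the others of its group, followed by that ratio.

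Responder 5, whose protein-coding share lies within the range of the controls, was the highest responder for MHC class I (8.66 against 7.64 to 8.06, ratio 0.589), MHC class II (8.06 against 6.57 to 7.15, ratio 0.612) and alternatively activated macrophage genes (5.43 against 2.70 to 3.90, ratio 0.562). Single genes were H2-K1 (11.4 against 10.4 to 10.8, ratio 0.635), H2-Eb1 (11.0 against 9.43 to 10.2, ratio 0.528), Ccl2 (5.23 against 2.67 to 3.76, ratio 0.576) and Ccr2 (7.88 against 5.56 to 6.65, ratio 0.533). The respiratory genes Atp5a1 (8.94 against 7.61 to 8.22, ratio 0.544) and Cox7a2 (6.13 against 4.27 to 5.15, ratio 0.527) were also highest there, and Tigit (0.704 against 1.58 to 2.35, ratio 0.535) was lowest.

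Control 5 was the highest control for several immune measures: the lists of B cells (-0.795 against -1.86 to -1.56, ratio 0.722) and T cell chemokines (1.98 against 0.828 to 1.11, ratio 0.752), and the genes Gzmb (1.51 against 0.394 to 0.709, ratio 0.717), Ctss (7.95 against 6.80 to 7.02, ratio 0.808), Ccr8 (-0.371 against -2.58 to -1.96, ratio 0.719), Ccr2 (6.43 against 4.93 to 5.10, ratio 0.885), H2-K1 (9.95 against 9.17 to 9.38, ratio 0.737) and Hgf (2.89 against 2.05 to 2.26, ratio 0.749). Its glycolysis and hypoxia score was the lowest of the controls (7.26 against 7.81 to 7.88, ratio 0.885).

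Responder 1, the tumour with the lowest protein-coding share, was highest for mitochondrial ribosomal RNA in percent of counts (14.3 against 1.15 to 6.33, ratio 0.605). It was lowest for the skeletal muscle list (1.76 against 4.17 to 5.78, ratio 0.600), its genes Acta1 (3.49 against 6.16 to 7.58, ratio 0.653), Ckm (2.04 against 3.94 to 5.56, ratio 0.539) and Mb (0.915 against 2.69 to 3.82, ratio 0.610), and Ccnb2 (1.35 against 2.44 to 3.40, ratio 0.531). Responder 8 was highest for the epidermal genes Krt10 (8.87 against -3.31 to 2.29, ratio 0.540), Krt1 (7.56 against -3.31 to 0.789, ratio 0.623) and Lor (6.23 against -3.31 to -1.11, ratio 0.770). Responder 3 was highest for the MAPK and HGF list (5.89 against 5.09 to 5.30, ratio 0.728) and Met (7.88 against 5.68 to 6.69, ratio 0.542), and lowest for Pparg (-0.533 against 0.829 to 1.69, ratio 0.613) and Egfr (5.12 against 5.92 to 6.50, ratio 0.579). Responder 7 was lowest for Gzmf (-3.31 against 1.12 to 4.13, ratio 0.596), Pdcd1lg2 (3.42 against 4.87 to 6.04, ratio 0.552) and Mmp12 (5.05 against 7.13 to 8.85, ratio 0.548), and highest for Kcnj13 (-1.11 against -3.31 to -2.36, ratio 0.566). Responder 2 was lowest for Plk2 (5.11 against 5.87 to 6.37, ratio 0.602).

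Among the other controls, control 1 was lowest for Tgfb1 (4.07 against 4.63 to 4.74, ratio 0.838) and highest for Tyrp1 (11.9 against 11.1 to 11.3, ratio 0.770). Control 2 was highest for Rsad2 (5.84 against 4.85 to 5.04, ratio 0.805) and lowest for Plk2 (7.35 against 7.80 to 7.97, ratio 0.722). Control 3 was highest for Il10 (-0.540 against -1.70 to -1.58, ratio 0.898) and for Cd40lg (-2.20 against -3.31 to -3.31, ratio 1.00), of which it held the only counts among the controls. It was lowest for Dusp6 (8.02 against 8.25 to 8.30, ratio 0.826), Retnlg (-3.31 against -2.01 to -1.73, ratio 0.824) and Ifit2 (5.79 against 6.19 to 6.35, ratio 0.714).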

How the results depend on the processing

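The depth of 8.76 to 34.3 M counts limits low genes, and the smaller number of protein-coding counts in the responders limits them further. No paired analysis was possible because the labels number no replicates across groups, and the numbers used here only name tumours in accession order. The 9417 protein-coding calls (4440 higher, 4977 lower) became 2231 (1386 and 845) with a requirement of at least 2-fold, and 2723 (1782 and 941) with responder 5 as the only responder. Under DESeq2, RLE scaling, both filters, the 13 tumours alone, protein-coding genes only, the covariate, limma on RPKM and the 4 responders with a share of at least 70%, the total lay between 6821 and 9732. Of the 6821 calls with the covariate, 6361 were also among the 9417 in the same direction. Leaving out 1 tumour gave 8765 (without control 1) to 9816 (without responder 5). The fit of the 13 tumours alone moved the median log2 fold change of all protein-coding genes to -0.11, and all its changes are relative to that shift. Without a filter 3550 rose and 5914 fell, of 18881 tested. With the stricter filter 4425 rose and 4006 fell, of 12432 tested. In DESeq2 4434 rose and 5298 fell, of 14753 tested. In limma on log2(RPKM + 1) 4193 rose and 4145 fell, of 12411 tested.

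Of the 208 named genes that passed, 18 lost the call when some single tumour was left out and 24 moved by over 1.5-fold. Directions that turned are as follows, and the cause was not tested. With responder 5 alone these were Lgals9 (0.26), Rpl10 (0.31), Sparc (0.23), Mdm2 (-0.13), Vegfa (-0.37), Fn1 (-0.26), Hspa5 (0.49), Plin1 (-0.11), Lamp1 (0.017), Tgfbr2 (0.32), Oas2 (-0.42), Twist1 (0.22), Ifit2 (0.12), Phgdh (0.00077) and Retnla (0.17). The epidermal genes Krt5 (-8.85), Krt10 (-5.74), Krt14 (-12.84), Krt1 (-11.52) and Lor (-8.85) turned too, as fitted values of a tumour with 0 counts for the last 3. With the covariate Sparc (0.052), Vegfa (-0.094), Hspa5 (0.014), Acta1 (0.11), Krt14 (-0.78) and Krt5 (-0.25) turned. With the 4 responders of a share of at least 70%, Hspa5 (0.050), Krt10 (-5.05), Krt14 (-0.59), Krt5 (-0.062), Krt1 (-8.28) and Lor (-4.96) did so. In DESeq2 Krt1 (-5.96) and Lor (-4.59) turned. Over the single omissions, Krt10 ran from -3.94 to 5.08, Krt1 from -5.91 to 6.30 and Lor from -4.53 to 5.71, each lowest without responder 8. B2m ran from -0.15 to 0.31 (lowest without responder 5), Fn1 from -0.30 to 0.30 (lowest without responder 3) and Irf7 from -0.23 to 0.024 (highest without control 2). Plin1 ran from -0.10 to 0.36, and was below 0 without control 1 and without responder 6 (-0.042). Irf7 was at 0.024 with the stricter filter and Plin1 at -0.019 with none. In limma on RPKM, Alas2 was at 0.15 with a pseudocount of 1, with or without a filter, and at 0.21 with 0.1, and Krt1 at -0.17 without a filter.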
